A study of Mus musculus with 5 samples.

Results

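The cytokines examined here are 10 genes of the TNF, IL-6 and IL-12 families and their functional neighbours: Tnf, Il6, Osm, Lif, Il12a, Il12b, Il23a, Il27, Ebi3 and Il15. They were taken by symbol from a table of 27179 NCBI gene identifiers, as inflammatory and T cell-polarising cytokines of antigen-presenting cells outside the IL-1 and IL-10 families, and all 10 were present in the table. The libraries came from Langerhans cells, the antigen-presenting cells of the epidermis, of C57BL/6 mice at 1 week of age. There were 3 libraries of Suz12 cKO mice, in which Suz12 carries a conditional knockout, and 2 libraries of wild type mice, each a biological replicate of 5000 cells. The Suz12 protein belongs to Polycomb repressive complex 2, which silences genes by methylating lysine 27 of histone H3. The sources used here name neither the Cre driver of the conditional allele nor any pooling of animals.

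These cytokines are secreted signals by which dendritic cells and macrophages start inflammation and direct T cells. TNF acts through a pair of receptors, encoded by Tnfrsf1a and Tnfrsf1b. IL-6, oncostatin M (Osm) and leukaemia inhibitory factor (Lif) all signal through the shared receptor chain gp130 (Il6st) and the transcription factor STAT3. The IL-12 family consists of dimers that share chains: IL-12 joins Il12a with Il12b, IL-23 joins Il23a with Il12b, and IL-27 joins Il27 with Ebi3. IL-15 is shown to natural killer and T cells by the cell that makes it, bound to Il15ra.

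The upstream sequences of 3 members are shown because they span the range found below: Tnf was detected in all 5 libraries, Il6 in 4 of 5, and Lif in none. Each is the 250 bases before the gene's start in RefSeq (GRCm38.p6, the build of mm10), read 5′ to 3′ on the gene's strand. Capitals mark matches, on either strand, to any of 5 motifs, and no match overlapped another in these windows. The motifs were TATAAA (the TATA box), TGANTCA (AP-1), TTNNGCAAT (C/EBP), TGACGT (the core of the cyclic AMP response element) and the NF-kappa-B consensus.
Tnf, chr17:35202008-35202257, minus strand: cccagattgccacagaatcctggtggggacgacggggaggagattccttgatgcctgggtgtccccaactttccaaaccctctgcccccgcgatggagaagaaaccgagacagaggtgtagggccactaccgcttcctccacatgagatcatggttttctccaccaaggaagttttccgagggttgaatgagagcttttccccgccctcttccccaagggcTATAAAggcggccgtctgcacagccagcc
Il6, chr5:30012864-30013113, plus strand: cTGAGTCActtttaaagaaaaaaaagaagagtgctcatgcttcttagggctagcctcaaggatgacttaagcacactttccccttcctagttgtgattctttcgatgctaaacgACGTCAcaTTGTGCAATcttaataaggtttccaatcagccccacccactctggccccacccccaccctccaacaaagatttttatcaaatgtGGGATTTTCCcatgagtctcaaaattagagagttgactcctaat
Lif, chr11:4257318-4257567, plus strand: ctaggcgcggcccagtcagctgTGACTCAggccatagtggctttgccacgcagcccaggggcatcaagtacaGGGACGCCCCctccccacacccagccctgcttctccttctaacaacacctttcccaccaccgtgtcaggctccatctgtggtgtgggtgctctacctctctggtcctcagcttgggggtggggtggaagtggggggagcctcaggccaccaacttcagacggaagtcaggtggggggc

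In the Tnf window the match was TATAAA, 29 to 24 bases before the start. The Il6 window held matches to AP-1, the core of the cyclic AMP response element, C/EBP and, 44 to 35 bases before the start, NF-kappa-B. The Lif window held AP-1 and NF-kappa-B matches. Over all 32851 windows of the table, 12.4% held the TATA box, 6.75% AP-1, 1.93% C/EBP, 6.47% the response element core and 7.25% the NF-kappa-B consensus. CG dinucleotides numbered 10 in the Tnf window, 3 in that of Il6 and 6 in that of Lif, against a median of 6 over all windows. A match describes letters in a window and does not show that a factor binds there.

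Counts assigned to genes came to between 12090062 and 25725900 in the cKO libraries, and to 18656968 and 17041996 in the wild type libraries. Levels are given as CPM, the counts relative to library size after scaling by TMM factors, and where genes are compared with each other, as CPM per kb of gene length. A gene was called detected in a library at 10 or more counts, and 3 counts corresponded to 0.106 to 0.258 CPM. Such floors and intervals cover counting error only, because PCR copies cannot be separated from distinct molecules here. The targeted gene, Suz12, had 0, 0 and 7 counts in the cKO libraries, against 88 and 39 in the wild type libraries. All 12 Langerhans cell markers, among them Cd207, Epcam and H2-Aa, were detected in every library. The source label names alveolar macrophages. Of 10 genes typical of those cells, Siglecf, Car4, Chil3, Fabp1 and Cidec were at 0 in every library. The other 5 had counts: Ear2 lay at 70.7, 63.8 and 250.4 CPM in cKO, against 466 and 122 CPM in wild type, Krt79 lay between 91.3 and 177 CPM and Ear1 between 1.88 and 9.31 CPM over the 5 libraries, and Marco and Slc39a2 had counts in wild type only. The part of such cells was not tested.

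Of the 10 cytokines, 3 were detected in all 5 libraries (Tnf, Il23a and Ebi3), 5 in some libraries only (Il6, Osm, Il12b, Il15 and Il27), and 2 in none (Il12a and Lif). By library, 7, 5 and 5 of the 10 were detected in cKO replicates 1 to 3, against 6 and 7 in wild type replicates 1 and 2. Detection in every library of the group held for 3 members in cKO and for 6 in wild type, a stricter condition in cKO, which has 3 libraries. Over all identifiers, 45.5% were detected in some library and 19.3% in all 5. Among those detected in some library, the share was 47.8% in every cKO library, 57.2% in every wild type library and 42.5% in all 5.

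**Figure D1:**
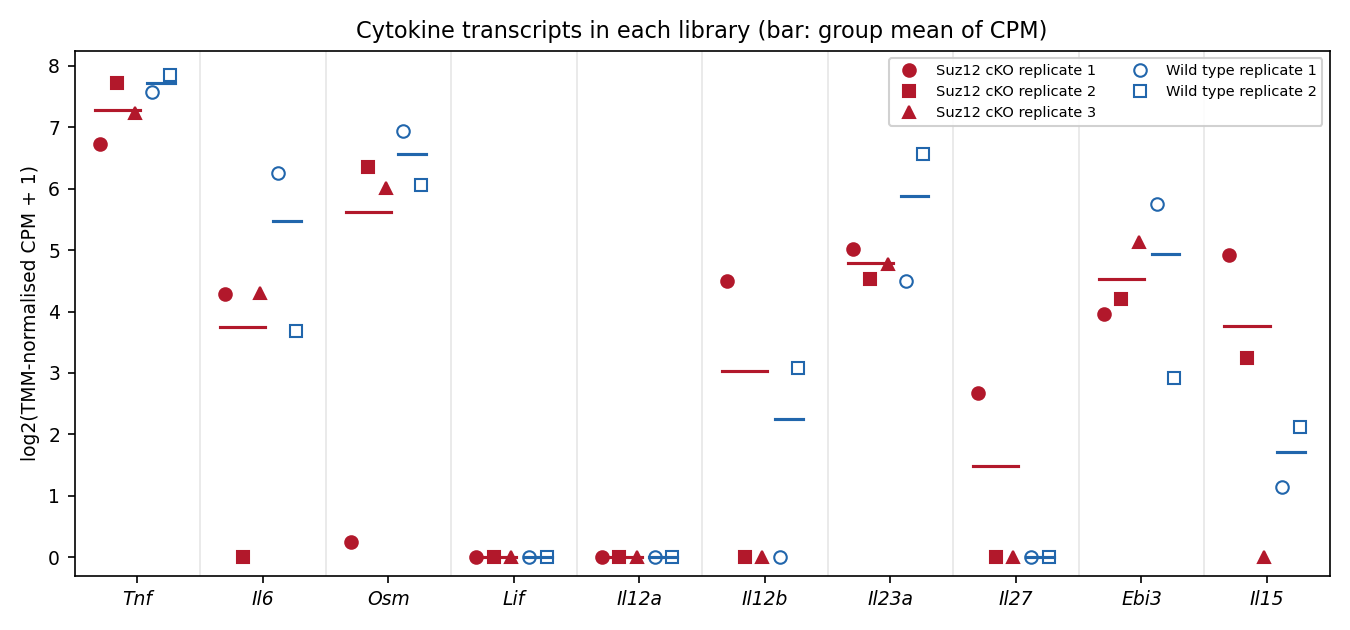
TMM-normalised CPM of the 10 cytokines in each of the 5 libraries, on a log2(CPM + 1) axis, with Suz12 cKO as filled red symbols and wild type as open blue symbols; bars are group means of CPM. Tnf lies between 105 and 230.2 CPM in every library, Lif and Il12a lie at 0 throughout, and Il6, Osm, Il12b, Il15 and Il27 are each high in some libraries and at or near 0 in others.

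Tnf (chr17:35199367-35202007, mm10) encodes tumour necrosis factor, which activates endothelium and leukocytes. It lay at 105, 210.2 and 149.8 CPM in cKO replicates 1 to 3, against 189.9 and 230.2 CPM in wild type replicates 1 and 2. The groups overlapped, since cKO replicate 2 lay between the wild type libraries, while the other cKO libraries lay below both. The group means were 155 ± 52.8 CPM in cKO and 210.0 ± 28.5 CPM in wild type (SD, n = 3 and n = 2). The log2 fold change, cKO minus wild type, was -0.44 (standard error 0.39). It did not pass edgeR's quasi-likelihood test (adjusted p = 0.999). The neighbouring gene Lta, 1157 bases from Tnf on chromosome 17, was detected in cKO replicate 2 and wild type replicate 2 alone, at 7.08 and 8.08 CPM.

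Among the gp130 cytokines, Il6 (chr5:30013114-30019975), which drives the acute phase response and T helper 17 differentiation, lay at 18.6, 0 and 18.7 CPM in cKO replicates 1 to 3, against 75.2 and 11.8 CPM in wild type replicates 1 and 2. Wild type replicate 1 stood highest, and wild type replicate 2 lay below the 2 cKO libraries in which Il6 was detected. In cKO replicate 2, the deepest library, Il6 had 0 counts. The floor of 3 counts there was 0.106 CPM, which covers counting error only. The log2 fold change was -1.81 (standard error 2.09, edgeR adjusted p = 0.999), and it turned to 0.07 without wild type replicate 1. It was -3.88 under limma-voom and -5.31 with a replicate block. Il6 lies within the lncRNA gene A230098N10Rik on the opposite strand, which had no count in any library.

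Osm (chr11:4236785-4241026), a cytokine of activated myeloid and T cells that acts on stromal and epithelial cells, lay at 0.188, 80.8 and 63.8 CPM in cKO, against 122 and 65.5 CPM in wild type. Only cKO replicate 1 stood apart, with 3 counts (95% exact Poisson interval 0.0387 to 0.549 CPM), and the other cKO libraries lay close to wild type replicate 2. The log2 fold change of -0.96 (standard error 1.58) became -0.35 without cKO replicate 1, -2.97 under limma-voom and -4.11 with a replicate block. Lif (chr11:4257568-4272514), a differentiation factor that regulates stem cells and inflammation, starts 16541 bases beyond the end of Osm on chromosome 11 and had no count in any library. Absence of counts in such an amplified library does not show that the gene was silent. The floor of a library covers counting error only, and the level in the cells may have been higher.

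In the IL-12 family, Il23a (chr10:128296140-128298084), the p19 chain of IL-23, lay at 31.3, 22.2 and 26.4 CPM in cKO, against 21.6 and 93.8 CPM in wild type. The cKO libraries lay close together and at the level of wild type replicate 1, with wild type replicate 2 alone high. Its log2 fold change was -1.11 (standard error 0.79), and 0.30 without wild type replicate 2. That library also had the highest summed level of the 6 melanocyte markers, at 429 CPM, against 33.1 to 145 CPM in cKO and 39.6 CPM in wild type replicate 1. The next highest sum, 145 CPM, was in cKO replicate 3, where Il23a lay at 26.4 CPM, between the other cKO libraries. The part of other cells in the Il23a value was not tested.

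Il12b (chr11:44400063-44414677), the p40 chain shared by IL-12 and IL-23, was detected in cKO replicate 1 at 21.6 CPM and in wild type replicate 2 at 7.49 CPM, with 0 counts in the other 3 libraries. Its log2 fold change of 0.94 (standard error 3.98) turned to -0.05 without wild type replicate 1. Il12a (chr3:68690644-68698550), the p35 chain, had no count anywhere. Both chains of IL-23 were therefore detected in 2 libraries, 1 of each genotype, and both chains of IL-12 in 0 libraries. Ebi3 (chr17:55952623-55957022), the chain that pairs with Il27, was present throughout, at 14.6, 17.5 and 33.9 CPM in cKO, against 52.7 and 6.54 CPM in wild type. The wild type libraries held both the highest and the lowest value, so the groups overlapped fully, and the log2 fold change of -0.43 (standard error 1.15) turned to 1.75 without wild type replicate 1. Ebi3 overlaps Zfp119b on the opposite strand, which had 268 counts in cKO replicate 1, where Ebi3 had 233, and 0 in the other libraries. Whether the counting used strand is not known from the sources used here. Without strand, reads from the stretch that the 2 genes share cannot be told apart, and overlap of their exons was not examined. Il27 (chr7:126589009-126595035), the p28 chain, had 86 counts in cKO replicate 1, or 5.38 CPM (95% exact Poisson interval 4.30 to 6.65), and 0 in the other 4 libraries. Il27 overlaps Apobr on the opposite strand by 117 bases, and Apobr had 376, 27 and 4 counts in cKO, against 112 and 2 in wild type, so it too was highest in cKO replicate 1. Both chains of IL-27 passed the detection threshold in cKO replicate 1 alone, with that reservation on strand for both genes.

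Il15 (chr8:82331624-82403252), a growth and survival factor of natural killer cells and memory T cells, lay at 29.4, 8.46 and 0 CPM in cKO, against 1.22 and 3.36 CPM in wild type. It was higher than both wild type libraries in cKO replicates 1 and 2 and had no count in cKO replicate 3, so the groups overlapped. Its log2 fold change was 2.46 (standard error 3.00, edgeR adjusted p = 0.999), and 0.93 without cKO replicate 1. It turned to -0.88 under limma-voom and to -1.20 with the wording of the sample titles as a term.

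Relative to gene length, Tnf was the highest of the 10 in every library. It lay at 64.9, 129.9 and 92.5 CPM per kb in cKO, against 117 and 142 CPM per kb in wild type, and made up 40.7%, 61.8% and 48.3% of the summed level of the 10 genes in cKO, against 37.6% and 53.0% in wild type. By group mean, the order in cKO was Tnf at 95.8, Osm at 25.3, Il23a at 19.6, Ebi3 at 18.8, Il6 at 11.4, Il15 at 9.82, Il12b at 3.69 and Il27 at 2.54 CPM per kb. In wild type it was Tnf at 129.7, Osm at 49.2, Il23a at 42.5, Il6 at 40.0, Ebi3 at 25.3, Il12b at 1.92 and Il15 at 1.78 CPM per kb. Below Tnf the neighbours in either order overlapped between libraries, except that in wild type the lower Ebi3 value exceeded both Il12b values. The summed level of all 10 genes was 159, 210.0 and 192 CPM per kb in cKO, against 312 and 268 CPM per kb in wild type. Every cKO sum thus lay below both wild type sums, an order that no single member showed and that 10.2% of tested genes had. The wild type sums held different peaks: Il6 lay at 69.2 and 10.9 CPM per kb in wild type replicates 1 and 2, and Il23a at 15.9 and 69.0 CPM per kb.

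**Figure D2:**
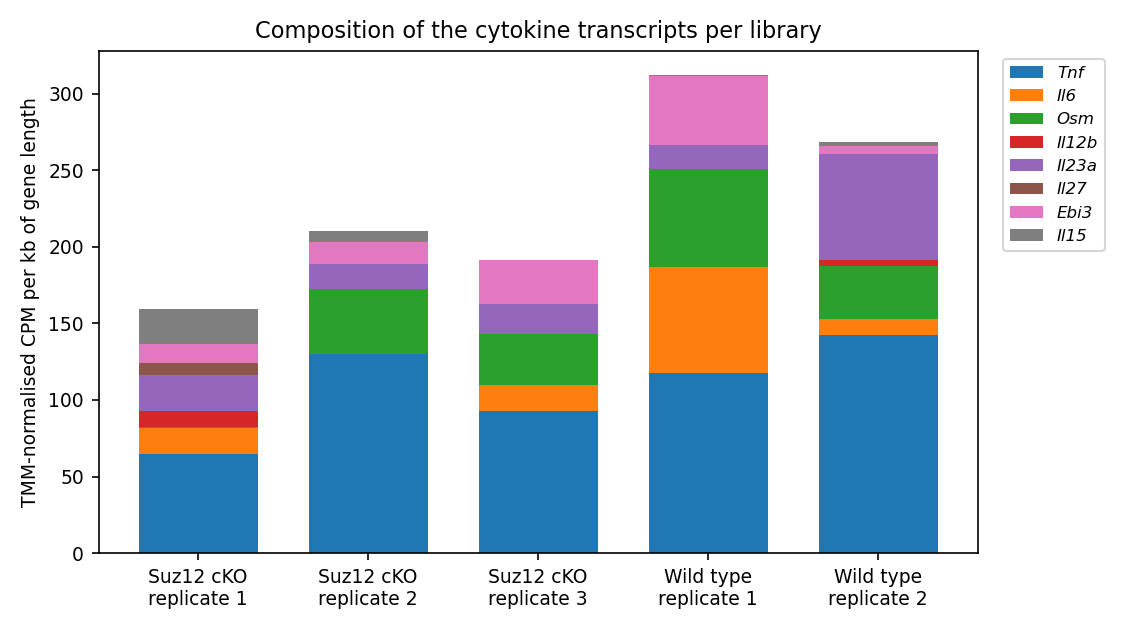
Stacked levels of the 8 cytokines with any count, as TMM-normalised CPM per kb of gene length, in the 3 Suz12 cKO libraries and the 2 wild type libraries. Tnf is the largest block in each; the totals are 159 to 210.0 in cKO, and 268 and 312 in wild type, with Il6 and Il23a the second block in 1 wild type library each.

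The sum of dermal macrophage and monocyte markers was also lower in every cKO library than in both wild type libraries. The 12 genes of that list summed to 696, 1227 and 873 CPM in cKO, against 2869 and 1618 CPM in wild type. The largest part was Lyz2, at 528, 640 and 500 CPM in cKO, against 2101 and 1081 CPM in wild type. In 4 of the 12 genes each cKO library lay below both of wild type, beside 10.2% of tested genes, and in 0 above, beside 8.87%. Vcan had 151, 430 and 0 counts in cKO and 0 in wild type, and Folr2, Plac8 and Mertk were at 0 throughout. Genes of the response to tissue dissociation, such as Fos and Dusp1, summed to 4804, 9892 and 6060 CPM in cKO, against 7366 and 5649 CPM in wild type. The sum was lowest in cKO replicate 1, where Tnf and Osm were lowest too, and highest in cKO replicate 2. Tnf was highest in wild type replicate 2, at 230.2 CPM, where the sum was next lowest, and Osm in wild type replicate 1, at 122 CPM. The part of both lists in the cytokine values was not tested. In bulk RNA of purified cells, fewer cells that express a gene and less of its RNA per cell cannot be told apart.

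Over all genes, 7 of the 10 cytokines had enough counts to test, 2 with a positive and 5 with a negative log2 fold change, and a median of -0.44, beside 0.06 for all 9988 tested genes, of which 52.5% had a positive value. edgeR called 0 of the 7 at an adjusted p of 0.05, beside 0 of all tested genes (0.0%), and DESeq2 called 0 of the 7, beside 191 of 9019 genes (2.12%). At an unadjusted p under 0.05 there were 0 of the 7, beside 415 genes, or 4.15%. No member had all cKO libraries on 1 side of both wild type libraries, beside 8.87% of tested genes with cKO above and 10.2% with cKO below, 19.0% in all. A level of 10 CPM or more in 1 library with under 1 CPM in another was found for 4 of the 7 (Il6, Osm, Il12b and Il15), beside 36.9% of tested genes. The standard errors of Il6, Osm, Ebi3, Il12b and Il15 were above 1 on the log2 scale, and larger than the fitted difference for all 5.

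**Figure D3:**
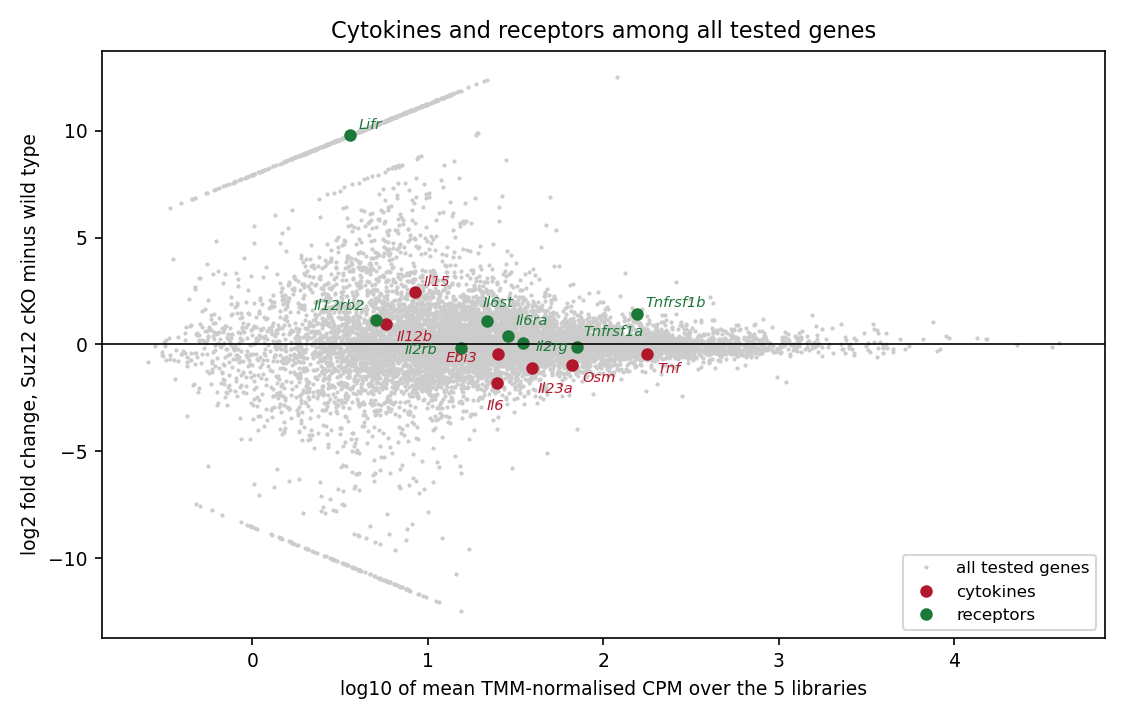
Log2 fold change of Suz12 cKO minus wild type (vertical) against the log10 mean CPM over the 5 libraries (horizontal) for 9988 tested genes in grey, 7 cytokines in red and 8 receptors in green. The cytokines lie within the grey cloud; Tnfrsf1b, at 1.44, lies above most genes of its level, and the straight outer bands are genes with no count in 1 group, Lifr among them, whose fitted values are not measured folds.

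Of 13 receptor genes, 5 were detected in every library, 3 in some libraries only (Il12rb2, Il2rb and Lifr) and 5 in none. The 5 in none had no count in any library: Il12rb1, Il23r and Il27ra, chains of IL-12 family receptors, Il15ra, which presents IL-15, and Osmr, the specific chain of the oncostatin M receptor. Those in every library were Tnfrsf1a, Tnfrsf1b, Il6ra, Il6st and Il2rg. Tnfrsf1b, which encodes TNF receptor 2, lay at 135, 253 and 237 CPM in cKO, against 70.1 and 83.7 CPM in wild type. Each cKO library exceeded both wild type libraries. The means were 208 ± 63.8 CPM in cKO and 76.9 ± 9.61 CPM in wild type (SD, n = 3 and n = 2). The log2 fold change of 1.44 (standard error 0.42) missed the threshold over all genes (edgeR unadjusted p = 0.0118, adjusted p = 0.968). Tnfrsf1a, the death domain-containing TNF receptor 1, lay at 55.4, 89.6 and 61.8 CPM in cKO, against 71.5 and 77.3 CPM in wild type, with a log2 fold change of -0.11.

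Il6st, the gp130 chain, lay at 16.9, 26.6 and 38.9 CPM in cKO, against 16.1 and 9.73 CPM in wild type. The groups did not overlap, but cKO replicate 1 and wild type replicate 1 were nearly equal, and the log2 fold change of 1.09 had a standard error of 1.10. Its partner Il6ra, the IL-6 binding chain, overlapped between groups, at 15.1, 31.7 and 48.1 CPM in cKO, against 18.4 and 29.1 CPM in wild type. Lifr, the LIF receptor chain, had 2, 317 and 78 counts in cKO and 0 in both wild type libraries. Pooled over the 3 cKO libraries, relative to library size, this was 84.9-fold above a floor of 3 counts over the wild type group. Most of the cKO counts came from cKO replicate 2, without which the bound was 34.6-fold. Such a bound covers counting error only. Lifr was detected in cKO replicates 2 and 3 alone (edgeR adjusted p = 0.968). Il2rb, a chain shared by the IL-2 and IL-15 receptors, lay at 19.9, 24.5 and 0 CPM in cKO, against 13.4 and 19.6 CPM in wild type. Il2rg, the common gamma chain, lay at 33.2, 49.2 and 24.6 CPM in cKO, against 53.7 and 13.97 CPM in wild type. Both overlapped between groups. Il12rb2 lay at 0, 11.5 and 7.81 CPM in cKO, against 0 and 5.90 CPM in wild type, and its partner chain Il12rb1 was at 0.

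**Figure D4:**
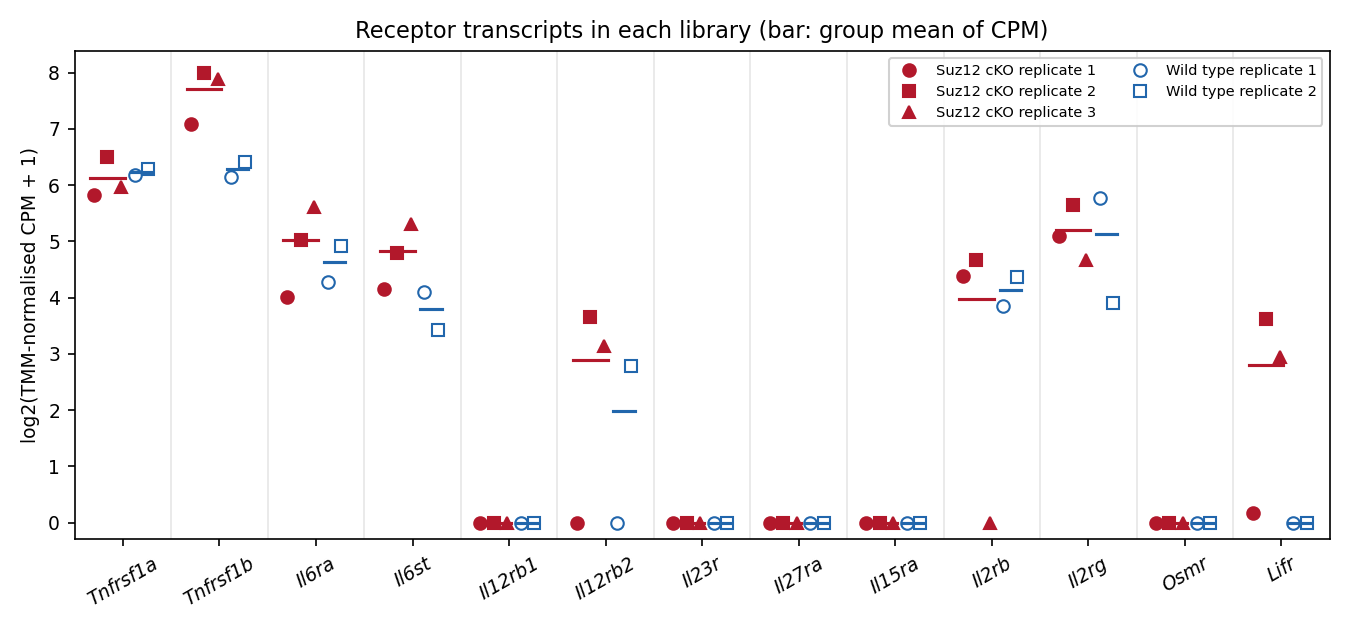
TMM-normalised CPM of 13 receptor genes in each library on a log2(CPM + 1) axis, with Suz12 cKO filled in red, wild type open in blue, and group means of CPM as bars. Tnfrsf1b and Il6st have every cKO library above both wild type libraries, Lifr has counts in cKO only (2 in replicate 1), and 5 genes lie at 0 throughout.

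Of the 8 receptors with enough counts to test, Lifr had no count in wild type, so the low-count filter fixed its direction. The other 7 had 5 positive and 2 negative log2 fold changes, with a median of 0.41, beside 0.02 for all tested genes with counts in both groups. None of the 8 passed with edgeR's adjusted p, and 1 had an unadjusted p under 0.05 (Tnfrsf1b). In 2 of the 7 (Tnfrsf1b and Il6st) each cKO library exceeded both of wild type, beside 8.1% of all tested genes with counts in both groups, and each lay below in 0, beside 9.68%. Keratinocytes surround Langerhans cells, and the sum of their transcripts also lay higher in the cKO libraries. The 15 markers summed to 934, 1224 and 1088 CPM in cKO, against 357 and 837 CPM in wild type, with Dsg3 at 0. In 5 of the 15 (Krt10, Krtdap, Lgals7, Sfn and Perp) each cKO library exceeded both of wild type, beside the 8.1% above. Krt5, Krt14, Sbsn and Trp63 overlapped between groups, with Krt14, Sbsn and Trp63 highest in wild type replicate 2. Of the 12 T cell markers the sum was 955, 444 and 262 CPM in cKO, against 696 and 487 CPM in wild type. Their part in the receptor values was not tested.

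Downstream of the receptors, 13 of 15 JAK, STAT and SOCS genes could be tested, with 8 positive and 5 negative fold changes, a median of 0.16 and 0 passing. Over all tested genes with counts in both groups, 51.0% were positive and the median was 0.02. In 2 of the 13 (Stat3 and Socs1) each cKO library exceeded both of wild type, beside 8.1% of those genes. Each lay below in 0, beside 9.68%. Stat3, the transcription factor of the gp130 cytokines, lay at 111, 72.0 and 134 CPM in cKO, against 50.4 and 56.7 CPM in wild type, with all cKO libraries above both. Its log2 fold change was 0.98 (standard error 0.46, edgeR adjusted p = 0.968). Socs1, a feedback inhibitor of JAK kinases, was likewise above in all, at 168, 55.5 and 65.4 CPM in cKO, against 40.1 and 42.4 CPM in wild type, highest in cKO replicate 1 (log2 fold change 1.22, standard error 0.64, edgeR adjusted p = 0.984), without which the log2 fold change was 0.57. The kinase Jak1, which acts with gp130, lay at 106, 131 and 48.1 CPM in cKO, against 93.4 and 17.9 CPM in wild type. The kinase Jak2 lay at 85.7, 44.1 and 38.1 CPM in cKO, against 55.6 and 42.4 CPM in wild type. Both overlapped between groups.

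In TNF receptor signalling, 12 of 14 genes could be tested, 6 with positive and 6 with negative fold changes, a median of -0.08 and 0 passing. The 4 most abundant were Birc3, Casp8, Rbck1 and Ripk1. Ripk1, the kinase that directs TNF receptor 1 signals to survival or death, lay at 33.2, 34.0 and 46.9 CPM in cKO, against 29.1 and 9.26 CPM in wild type. Each cKO library exceeded both of wild type in 1 of the 12 genes (Ripk1) and lay below in 1 (Sharpin, named after its values were seen), near the background of 8.87% and 10.2% of all tested genes. Birc3, a ubiquitin ligase that restrains TNF-induced death, overlapped between groups, at 59.5 to 90.4 CPM in cKO, against 65.3 to 111 CPM in wild type. The same held for Casp8, the initiator caspase of death receptors, and for Rbck1, a subunit of the linear ubiquitin ligase.

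Of 12 genes for the release of TNF and the decay of cytokine mRNA, 0 passed. Rc3h1 and Tia1 had no count in wild type, so the low-count filter fixed their direction, and they are left out of the counts that follow. The other 10 had 8 positive and 2 negative fold changes and a median of 0.86, beside 0.02 for the 9470 tested genes with counts in both groups, of which 51.0% were positive. In 4 of the 10 (Adam17, Rhbdf2, Elavl1 and Arid5a) each cKO library exceeded both of wild type, beside 8.1% of all tested genes with counts in both groups. Zfp36, or tristetraprolin, which binds and destabilises Tnf mRNA, was the most abundant, at 1148, 2676 and 1509.9 CPM in cKO, against 1600.9 and 1346 CPM in wild type. Its paralog Zfp36l1 lay at 645, 255 and 621 CPM in cKO, against 545 and 402 CPM in wild type. Zfp36l2 lay at 45.7, 95.9 and 34.3 CPM in cKO, against 70.1 and 105 CPM in wild type. All 3 overlapped between groups. Elavl1, or HuR, which stabilises cytokine mRNAs, lay at 117, 308 and 160.2 CPM in cKO, against 64.6 and 112 CPM in wild type, each cKO library above both, with a log2 fold change of 1.15 (standard error 0.54, edgeR adjusted p = 0.968). Adam17, the protease that sheds TNF and its receptors from the cell surface, was named after its values were seen. It lay at 24.7, 129 and 44.4 CPM in cKO, against 3.81 and 11.97 CPM in wild type, with a log2 fold change of 3.07 (standard error 1.06, edgeR unadjusted p = 0.0243, adjusted p = 0.968). That value was 2.13 without cKO replicate 2; leaving out wild type replicate 1 gave 2.47, and leaving out wild type replicate 2 gave 4.14. The keratinocyte sums given above lay higher in the same libraries, though only 5 of the 15 markers did so singly. The part of keratinocytes in these values was not tested.

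**Figure D5:**
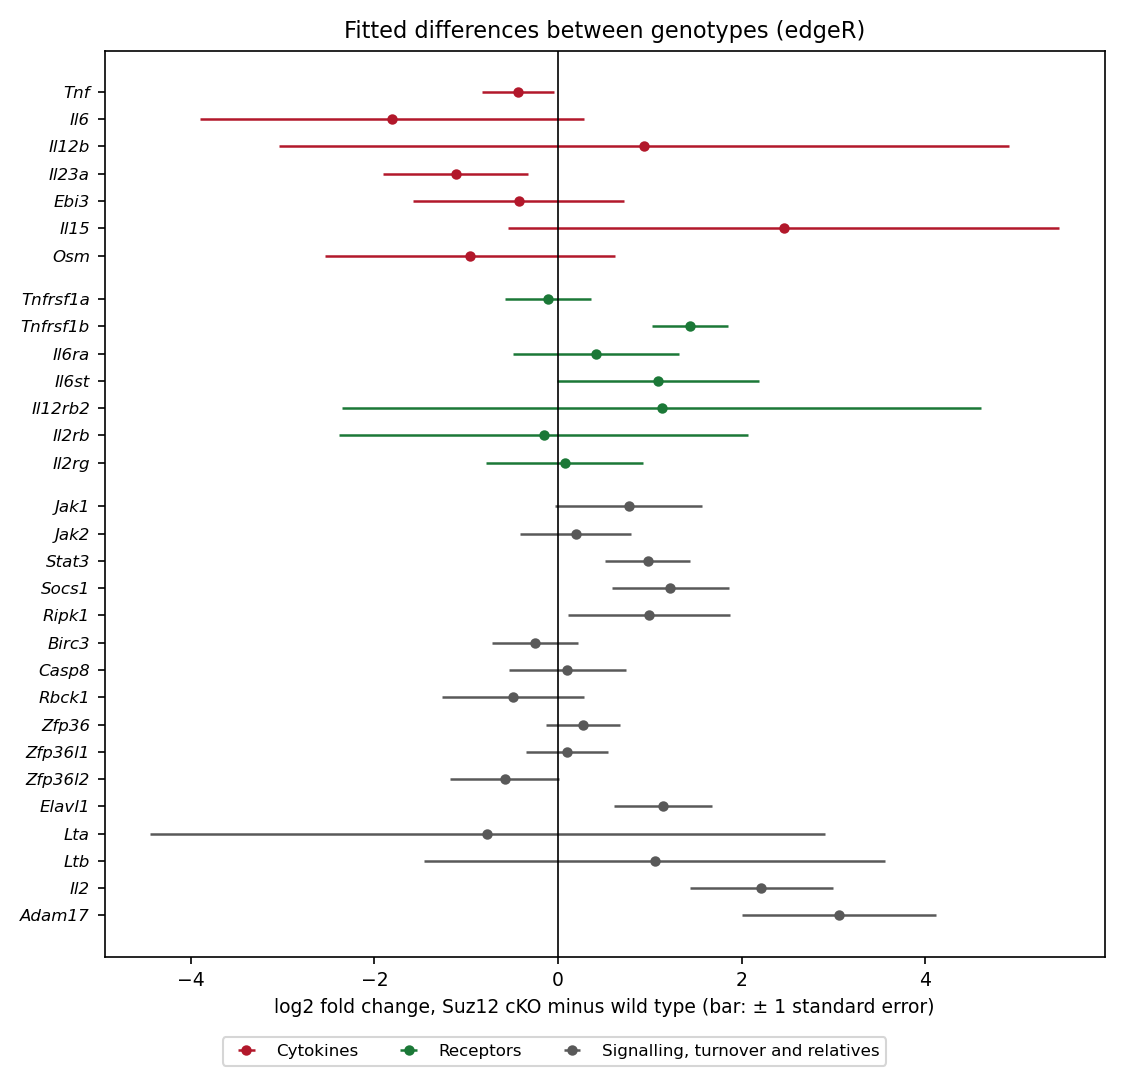
Fitted log2 fold changes, Suz12 cKO minus wild type, with bars of 1 standard error, for the cytokines (red), receptors (green) and named signalling, turnover and related genes (grey) that were tested and had counts in both groups. Of the cytokines, the bars of Tnf and Il23a leave out 0, both on the negative side, and Tnfrsf1b, Stat3, Socs1, Elavl1, Il2 and Adam17 are among those on the positive side; none passed over all genes.

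Likeness of pattern was measured for the 3 cytokines detected in every library, as the root mean square difference of log2(CPM + 1), centred on each gene's mean, over the 5 libraries, among the 2670 genes averaging 50 CPM or more. Closest to Tnf were Nop16 (0.114), Ergic3 (0.117) and Hdgf (0.125). Nearest to Il23a were Washc3 (0.158), Mrpl51 (0.243) and Gtf3c6 (0.267), all highest in wild type replicate 2. For Ebi3 they were Ppp1r7 (0.353), Mrpl18 (0.391) and Hsd17b12 (0.420). With 5 libraries and 2670 candidates, close matches carry no information on shared function or control.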

How the data were processed

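Messenger RNA of 5 libraries was profiled with an ultra-low-input protocol, per the labels' protocols. The authors deposited raw counts per gene, and the submitters' processing notes name featureCounts and mm10. The sources used here give no aligner, no versions, and no handling of strand or shared reads. The files per sample held the same counts as the series table, and no pair of libraries in a group agreed within counting noise (chi-square per degree of freedom at least 182). RefSeq on GRCm38.p6 gave symbols for 25275 of 27179 identifiers; the other 1904 stayed in the fit.

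Genes were filtered with filterByExpr (minimum count 10) and tested with edgeR 4.0.16 in R 4.3.3 (TMM factors, robust quasi-likelihood F test on genotype, Benjamini-Hochberg adjustment over all tested genes, threshold 0.05). Fold changes are log2 values of cKO over wild type, and standard errors follow from the F statistic. DESeq2 1.42.0 and limma 3.58.1 served as alternatives. The p-values reflect only how these 5 libraries vary.

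The members and gene lists were chosen with earlier results of these data known. All members and receptors are named, and in each pathway list the 4 genes with the highest mean CPM; others are said to be named after their values were seen, as were Rhbdf2, Rc3h1, Tia1 and Arid5a. Counting lists over genes with counts in both groups, and the bounds without a library, were choices made after seeing the data. No table of protein sequences was used here.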

Additional observations from a re-analysis of the deposited data

How the results depend on the processing

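No cytokine was called under any of the alternatives. Over all genes DESeq2 called 191 (137 higher, 54 lower in cKO) and a replicate block called 1, against 0 under every other setting. The replicate numbers gave no sign of pairing: deviations of same-numbered libraries correlated at -0.027 and -0.025. Members detected in every cKO library numbered 3 or 4 under other thresholds and 4 without any 1 cKO library; in wild type they numbered 6, and 6 or 7 without 1 library. Direction changed under limma-voom for Il12b (-0.67), Ebi3 (0.037) and Il15 (-0.88), and for Il15 with the wording of the sample titles, which differs between libraries, as a term (-1.20). With the replicate block it changed for Il6ra (-0.082), Il2rb (0.45), Casp8 (-0.24) and Zfp36l1 (-0.21), and with edgeR's legacy option off for Il2rb (0.10). The median over all genes lay at -0.09 under limma-voom, at 0.14 without the low-count filter, at 0.29 without wild type replicate 1 and at 0.37 without wild type replicate 2, against 0.06. The cause was not tested.

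Leaving out each library in turn turned the direction of some log2 fold changes, which then spanned -2.61 to 0.072 for Il6, -0.053 to 10.03 for Il12b (not fitted without cKO replicate 1), -1.81 to 0.30 for Il23a and -1.26 to 1.75 for Ebi3. Among receptors the spans were -0.35 to 0.048 for Tnfrsf1a, -0.0036 to 0.79 for Il6ra, -0.74 to 0.44 for Il2rb and -0.58 to 1.36 for Il2rg. Among other named genes they were -0.23 to 0.40 for Jak2, -0.58 to 0.18 for Birc3, -0.36 to 0.80 for Casp8, -1.25 to 0.10 for Rbck1, -0.15 to 0.53 for Zfp36, -0.11 to 0.42 for Zfp36l1 and -1.76 to 8.50 for Lta. Tnf kept a negative sign (-0.72 to -0.20), as did Osm (-1.55 to -0.35), and Tnfrsf1b a positive one (1.27 to 1.69). Leaving out a library also moved Il15 (0.93 to 3.36), Adam17 (2.13 to 4.14), Il2 (1.43 to 2.61), Il12rb2 (0.14 to 9.93), Jak1 (0.03 to 2.41), Ripk1 (0.39 to 2.04) and Ltb (0.18 to 3.71) without a change of sign. Without a change of sign, limma-voom moved Il6 to -3.88, Osm to -2.97, Il2rb to -3.71 and Lta to -2.28, the replicate block moved Il6 to -5.31, Osm to -4.11 and Jak1 to 1.52, and the title term moved Il2rb to -3.85, Il12rb2 to 4.59 and Ltb to 1.98. For a value at 0, the floor of 3 counts in that library covers counting error only. Scaling all libraries to the shallowest left 3 members detected in every cKO library and 6 in every wild type library.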

Other observations

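Of 13 further genes related to these cytokines, 7 had no count in any library and 4 could be tested, with 0 passing. The 3 of these with counts in both groups had 2 positive and 1 negative log2 fold changes. Il2, a T cell growth factor that dendritic cells can also make, was the most abundant of them. It lay at 197, 39.2 and 83.8 CPM in cKO, against 25.7 and 20.3 CPM in wild type. Each cKO library exceeded both of wild type, as in 8.1% of all tested genes with counts in both groups. The means were 107 ± 81.1 CPM in cKO and 23.0 ± 3.81 CPM in wild type (SD, n = 3 and n = 2). The log2 fold change of 2.21 (standard error 0.78) missed the threshold over all genes (edgeR unadjusted p = 0.0264, adjusted p = 0.968), and was 1.43 without cKO replicate 1. The summed T cell markers were highest in cKO replicate 1, as Il2 was, but lower in cKO replicates 2 and 3 than in both wild type libraries, and their part in the Il2 value was not tested.

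Ltb, a membrane partner of lymphotoxin, lay at 6.88, 1.13 and 2.75 CPM in cKO, against 0.265 and 3.18 CPM in wild type, so the groups overlapped. Clcf1, a further cytokine that signals through gp130, had 0, 290 and 35 counts in cKO and 0 in both wild type libraries. Pooled over the 3 cKO libraries, relative to library size, this was 69.5-fold above a floor of 3 counts over the wild type group. Without cKO replicate 2 that bound was 15.1-fold, and it covers counting error only. Like Lifr, Clcf1 was detected in cKO replicates 2 and 3 alone (edgeR adjusted p = 0.968). Of 9988 tested genes, 518 had no count in 1 of the groups.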
